A study of Mus musculus with 6 samples.

Results

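The mRNAs of the eukaryotic translation initiation factors (eIFs) were followed in gastrocnemius, a calf muscle of mostly fast fibres, of tumour-bearing mice. The members were taken by name: of 85 rows of the expression table whose symbol began with Eif and a digit, 2 elongation-related genes (Eif5a and Eif5a2) and 10 rows with -ps in the symbol were left out. That left 73 genes of 57010 in the table. Of the 73, 51 reached the expression filter of 1 TPM in at least 3 of 6 libraries and were tested, 1 (Eif4e1b) lay above 0 but under the filter, and 21 were listed at 0 in all 6 libraries. TPM divides a gene's reads by its transcript length and sums to 1000000 in every library, so levels of different genes can be compared within a library. Where 3 values are given for a group, they stand in the order of its libraries 1, 2 and 3. The 21 genes at 0 were 17 numbered copies of Eif1ad, Eif2s3y, Eif4a3l1, Eif4a3l2 and Eif2c5, whose name is of the older Argonaute type.

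Every library was from an NSG mouse, an immunodeficient strain that lacks mature lymphocytes, and every mouse carried a subcutaneous tumour of the human breast cancer line MDA-MB-231 with Rab27a knocked down. For the 3 radiotherapy samples, 10 Gy was given to the tumour only, once it had reached about 800 mm3, and gastrocnemius of the opposite side was collected 3 days afterwards. The 3 control samples were from mice with the same tumours and no radiotherapy. The knockdown was thus shared by both groups, and tumours without it were not analysed here. Whether replicates are different animals is not stated, so a p-value here covers spread between samples that may be technical. The contrast asks how the initiation machinery of a distant, unirradiated muscle differed after the tumour was irradiated.

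Initiation begins when eIF2, bound to GTP, brings the initiator tRNA to the small ribosomal subunit together with eIF1, eIF1A, eIF3 and eIF5. The cap-binding complex eIF4F, made of the cap-binding protein eIF4E, the helicase eIF4A and the scaffold eIF4G, recruits that assembly to the mRNA, and eIF5B then joins the large subunit. Both entry points are controlled: kinases that phosphorylate eIF2α block its recycling by the exchange factor eIF2B, and the 4E-BP proteins hold eIF4E away from eIF4G unless the growth kinase mTORC1 phosphorylates them. These controls act on proteins, which mRNA levels do not measure.

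The libraries held muscle RNA: 6 skeletal muscle markers (Acta1, Ckm, Mylpf, Myh4, Tnnt3 and Pvalb) summed to between 110680 and 120217 TPM in control and to between 50925 and 93177 TPM after radiotherapy, lowest in radiotherapy 2. Transcripts of the mitochondrial genome took 8.93 to 13.7% of TPM in control and 15.1 to 22.5% after radiotherapy. Each library summed to 1000000 TPM by construction, so depth was unknown. The summed red cell and tendon markers were lower in every radiotherapy library than in every control library (for the red cell sum at most 1147 TPM against at least 2257 TPM; of the 3 tendon markers, Tnmd overlapped), leukocyte markers were highest in control 1, adipocyte markers in radiotherapy 1 and Schwann cell markers in radiotherapy 3. Endothelial sums (55.5 to 82.0 TPM) and fibro-adipogenic sums (77.6 to 133 TPM) overlapped between the groups. In bulk muscle, fewer cells of a type and less RNA per cell cannot be told apart.

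No initiation factor gene passed the test of radiotherapy against control. The count was 0 of 51 in limma at an adjusted p of 0.05 over all 11375 genes tested, where 0.0% were called (limma adjusted p from 0.977 to 0.991 over the 51). At an unadjusted p under 0.05 limma called 0 of the 51, against 3.82% of all genes (0.967% higher and 2.86% lower). The 3 radiotherapy values lay below all 3 control values in 3 members, Eif2d, Eif3f and Eif3i, against 7.54% of all genes, and above them in 0 members, against 1.7% (9.24% in either direction). Fold changes, given as radiotherapy minus control on the log2(TPM + 1) scale, ran from −0.65 for Eif6 to 0.56 for Eif4ebp1. Their median was −0.16 with 35 of 51 negative (68.6%), close to the median of −0.11 and the 67.9% negative of all genes tested. With quantile normalization the all-gene median was −0.01, that of the 51 was −0.01 as well, and 26 of the 51 were negative.

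**Figure D1:**
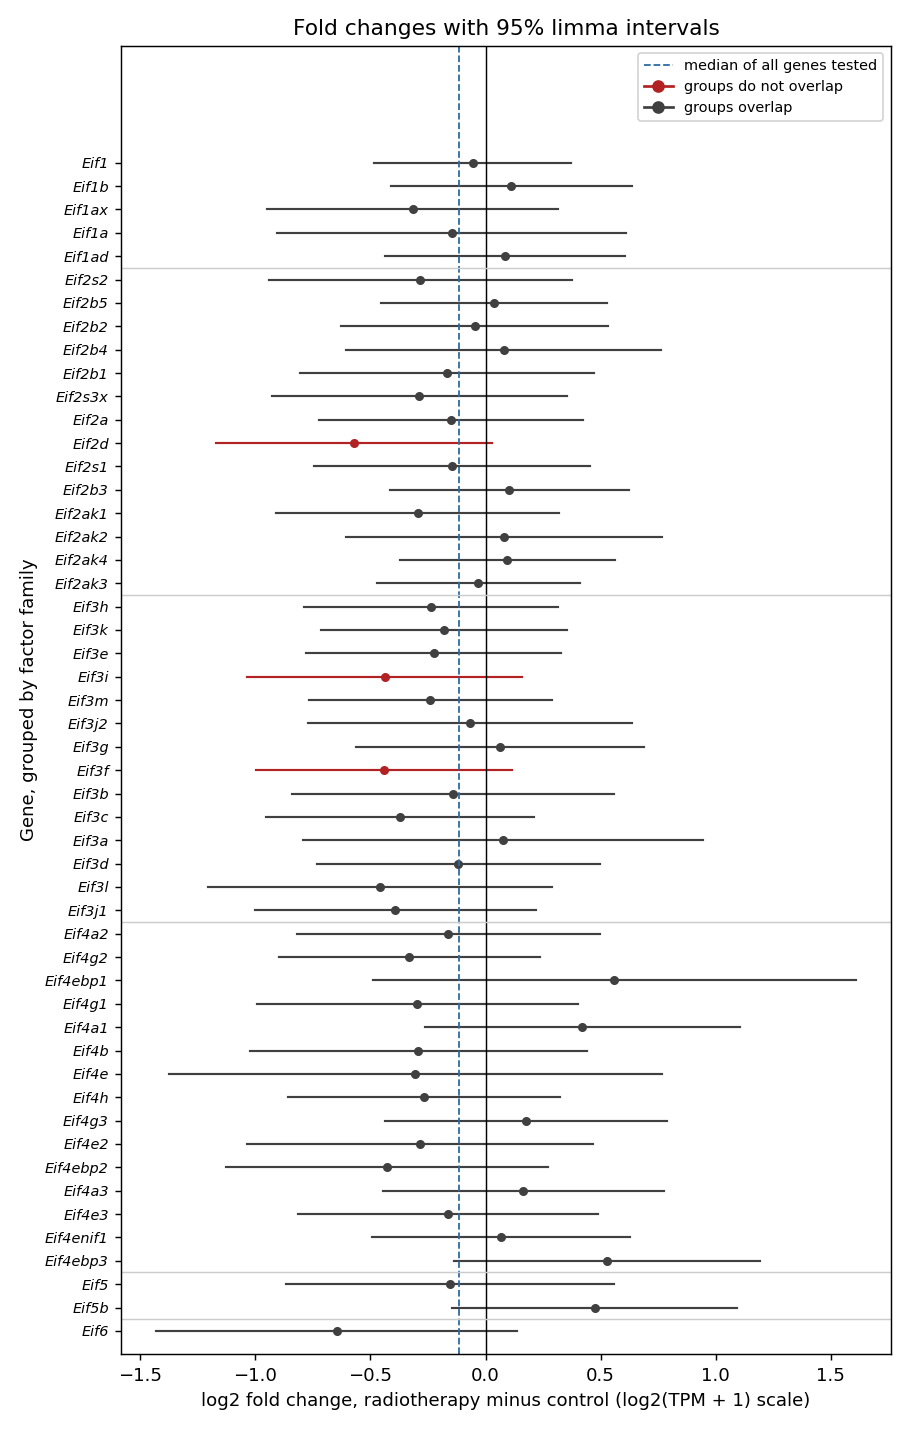
Difference of each of the 51 tested genes, radiotherapy minus control on the log2(TPM + 1) scale (x axis), with 95% limma intervals (bars), grouped by factor family (y axis). Every interval includes 0; the 3 genes whose groups did not overlap (Eif2d, Eif3f, Eif3i) are in red, and the dashed line marks the median of all genes tested, −0.11.

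Member genes were high or low together by library. Radiotherapy 2 held the lowest value for 34 of the 51 genes (66.7%), against 52.4% of all genes tested, and the median gene deviated from its 6-library mean by −0.45 there on the log2 scale, against −0.29 for all genes. Control 3 held the highest value for 20 genes (39.2%, against 25.2% of all genes) and radiotherapy 3 for 23 (45.1%, against 35.8%). The lowest value of no member was in either library, against 14.7% of all genes in control 3 and 3.79% in radiotherapy 3. Radiotherapy 2 was also the library with the lowest muscle marker sum and the highest mitochondrial share, 22.5%; the part of either in these values was not tested. Without radiotherapy 2 the median fold change of the 51 was 0.02, against −0.005 for all genes. Of the 51, 24 were then negative (47.1%, against 50.9% of all genes). With control 3 also left out, a setting added after the data were seen, the median of the 51 was 0.0949, with 16 of 51 negative (31.4%, against 49.2% of all genes). Without radiotherapy 3 alone it was −0.33, against −0.25 for all genes, with 44 negative (86.3%, against 80.8% of all genes). There 20 of 51 were lower without overlap (30.7% of all genes were), and the smallest limma adjusted p of a member was 0.507.

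**Figure D2:**
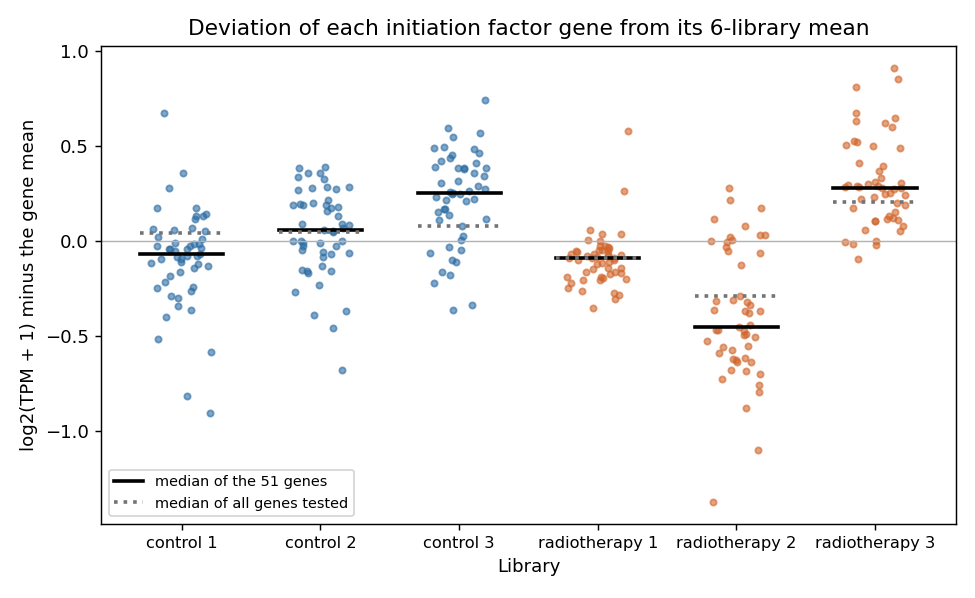
Deviation of each of the 51 tested genes (points) from its own 6-library mean in log2(TPM + 1) (y axis), by library (x axis, control in blue and radiotherapy in orange); points are spread sideways at random. Solid bars mark the median of the 51 genes and dotted bars that of all genes tested: the lowest solid bar is radiotherapy 2 at −0.45, and control 3 and radiotherapy 3 are the highest at 0.26 and 0.28.

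Summed over the 73 genes, initiation factor mRNA made up 4345, 4719 and 5547 TPM in the controls, against 4150, 3826 and 5692 TPM with radiotherapy. The groups overlapped, and the ratio of the means was 0.935 (two-sided exact permutation p = 0.6; 0.1 is the smallest p that 3 samples against 3 allow). Eif1 alone made up 29.7% of the sum. The eIF3 genes, 28.4% of the sum, summed to 1435 ± 229 TPM in control and 1244 ± 296 TPM with radiotherapy (exact permutation p = 0.4, n = 3 each), and the eIF4 genes to 1384 ± 164 and 1354 ± 473 TPM (p = 0.9 by the same exact test, n = 3 each). The eIF2 family, which here includes eIF2B and the eIF2α kinases, summed to 430 ± 53.2 and 396.0 ± 93.4 TPM (exact permutation p = 0.7, n = 3 each). No sum gave an adjusted p under 0.9 over the 7 exact permutation tests of sums.

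**Figure D3:**
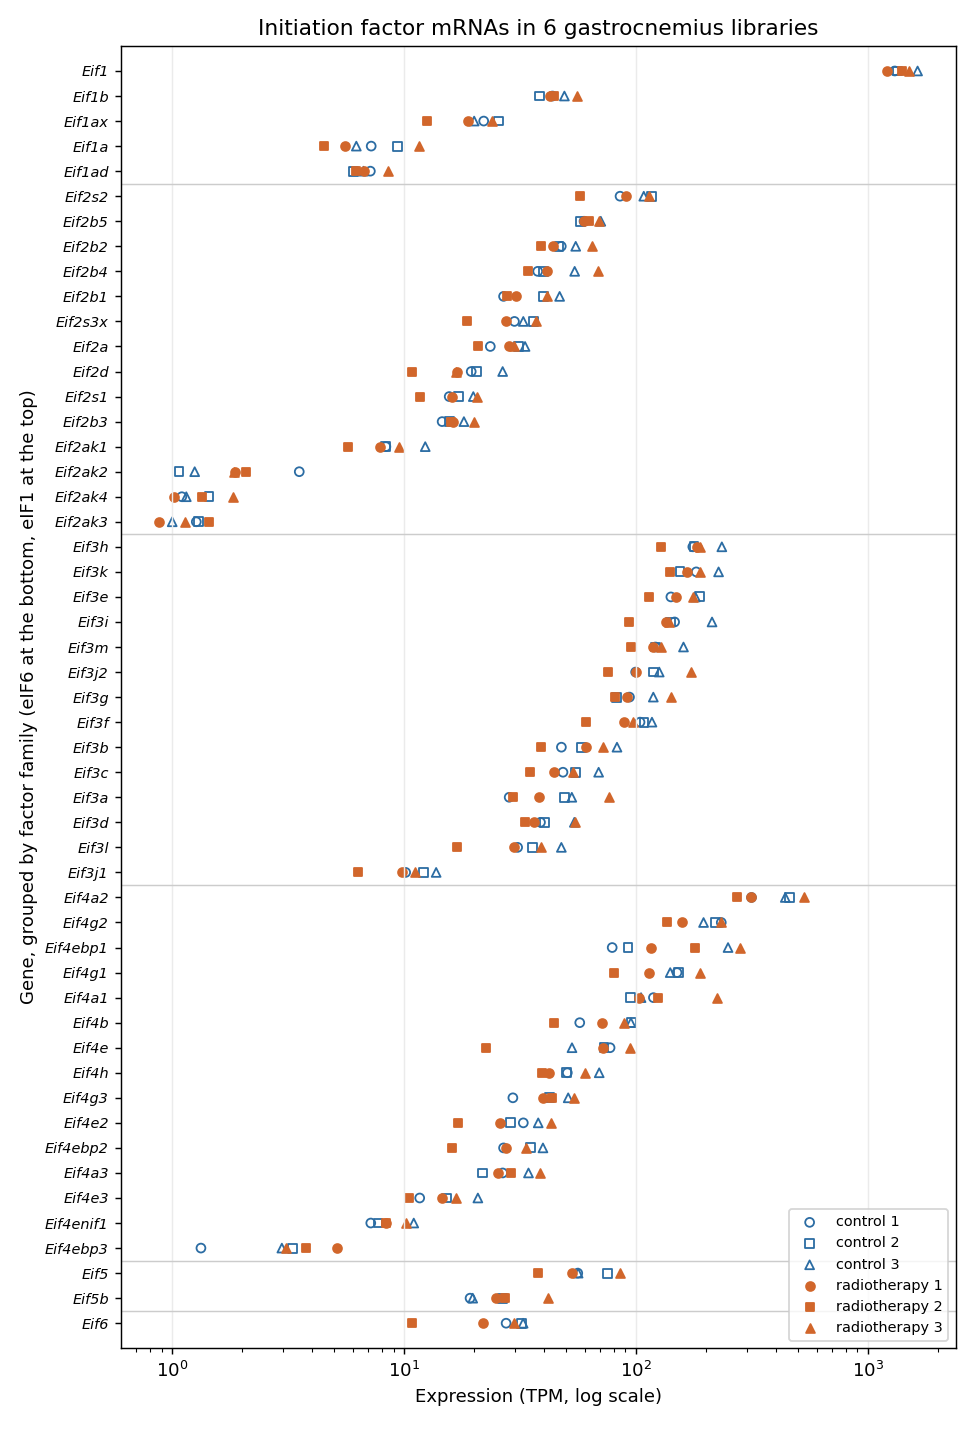
Expression of the 51 tested genes in TPM (x axis, log scale) by gene (y axis, grouped by factor family), with open blue symbols for the 3 control and filled orange symbols for the 3 radiotherapy libraries. Eif1 stands apart at 1209 to 1636 TPM, the eIF2α kinases lie lowest among the eIF2 genes, and filled squares (radiotherapy 2) mark the lowest value of 34 genes.

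Among the factors of start codon scanning, 1 gene held most of the mRNA. Eif1, which keeps the scanning ribosome from stopping at wrong codons, was at 1304, 1341 and 1636 TPM in the controls, against 1209, 1399 and 1507 TPM with radiotherapy. The groups overlapped almost fully (log2 fold change −0.06, SE 0.19), and the sign turned positive after each of 3 other scalings. Its paralogue Eif1b was at 38.5 to 49.1 TPM in control and 42.5 to 55.4 TPM after radiotherapy (0.11, SE 0.23). Eif1 thus exceeded Eif1b 27.2- to 34.9-fold within each library. eIF1A, which works with eIF1, is encoded by Eif1ax at 20.0 to 25.5 TPM in control and 12.5 to 23.9 TPM after radiotherapy (−0.32, SE 0.28), and by Eif1a, at 4.51 to 11.6 TPM over the 6 libraries. Eif1ad, an eIF1A-domain protein, was at 6.06 to 8.55 TPM.

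The eIF2 subunits were expressed unequally although they form a 1:1:1 complex. Eif2s2 (eIF2β) was at 85.3, 117 and 108 TPM in the controls, against 90.8, 57.4 and 113.5 TPM with radiotherapy (log2 fold change −0.28, SE 0.29). The values overlapped, with radiotherapy 2 alone below all controls. Eif2s1, which encodes the α subunit that the stress kinases phosphorylate, was lowest of the 3, at 15.6, 17.2 and 19.9 TPM in the controls, against 16.0, 11.7 and 20.6 TPM with radiotherapy (−0.15, SE 0.27). Eif2s3x, the X-linked gene of the tRNA- and GTP-binding γ subunit, was at 29.9, 36.2 and 32.6 TPM in the controls, against 27.4, 18.7 and 37.0 TPM with radiotherapy (−0.29, SE 0.28). Its Y-linked homologue Eif2s3y was listed at 0 in all 6 libraries.

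Eif2d, which can deliver tRNA to the ribosome without eIF2 and acts in ribosome recycling, was the member with the smallest unadjusted p. It was at 19.5, 20.5 and 26.6 TPM in the controls, against 16.9, 10.8 and 16.7 TPM with radiotherapy. All radiotherapy values lay below all controls, and the means were 22.2 ± 3.84 and 14.8 ± 3.45 TPM (n = 3 each). With the abundant and mitochondrial genes removed the groups overlapped. The log2 fold change was −0.57 (SE 0.26, 95% interval −1.17 to 0.03), which did not pass (limma adjusted p = 0.977). Radiotherapy 2 was the lowest and control 3 the highest library. Without radiotherapy 2 the log2 fold change was −0.37, and with both of these libraries left out it was −0.24. Eif2a, also named for tRNA delivery outside the eIF2 complex, gave −0.15 (SE 0.25), with 23.5 to 33.2 TPM in control and 20.9 to 29.8 TPM after radiotherapy.

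The 5 subunits of eIF2B, the exchange factor that reloads eIF2 with GTP, had fold changes near 0. Eif2b5, the catalytic ε subunit, was at 59.7, 57.7 and 70.4 TPM in the controls, against 59.8, 63.0 and 69.4 TPM with radiotherapy. It varied least of the 51, with a coefficient of variation of 8.51% over the 6 libraries (log2 fold change 0.04, 95% interval −0.46 to 0.53). The regulatory subunits Eif2b1, Eif2b2 and Eif2b4 and the catalytic partner Eif2b3 gave fold changes between −0.17 and 0.10, and 3 of the 5 subunits were positive. Eif2b3 was lowest, at 14.6 to 20.1 TPM, where the other 4 subunits ranged from 26.8 to 70.4 TPM.

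Of the 4 kinases that phosphorylate eIF2α, only Eif2ak1 (HRI, the haem-regulated kinase) was above 5 TPM. It was at 8.34, 8.33 and 12.3 TPM in the controls, against 7.85, 5.74 and 9.54 TPM with radiotherapy (log2 fold change −0.30, SE 0.27), and the groups overlapped. Eif2ak3 (PERK, the kinase of endoplasmic reticulum stress) was at 1.00 to 1.30 TPM in control and 0.88 to 1.44 TPM after radiotherapy (−0.03, SE 0.20). Eif2ak4 (GCN2, the sensor of amino acid shortage) was at 1.10 to 1.44 and 1.02 to 1.83 TPM (0.10, SE 0.21). Eif2ak2 (PKR, an interferon-induced kinase activated by double-stranded RNA) was at 1.07 and 1.25 TPM in controls 2 and 3 and 1.84 to 2.08 TPM after radiotherapy, but at 3.53 TPM in control 1 (0.08, SE 0.30). Leukocyte marker RNA was also highest in control 1, 1739 TPM summed over 6 markers against 155.6 to 742 TPM elsewhere; all 6 were highest there, none was at 0 in any library, and their part in the Eif2ak2 value was not tested. Without control 1, the only control above the radiotherapy values, the Eif2ak2 fold change was 0.44. The groups then did not overlap, in a setting where 5.56% of all genes were higher without overlap.

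Targets and partners of this branch did not pass either. Of 12 genes of the ATF4 response, which follows eIF2α phosphorylation, 10 were tested and 0 passed limma (6 positive and 4 negative, median 0.12). Chac1, a glutathione-degrading enzyme, was at 41.8, 79.6 and 206 TPM in the controls, against 34.9, 26.3 and 17.7 TPM with radiotherapy without overlap (−1.76, SE 0.52, limma adjusted p = 0.977). The serine synthesis gene Phgdh, near the filter, was at 0.85, 1.16 and 0.66 TPM in the controls, against 2.79, 0.84 and 2.53 TPM with radiotherapy. Its groups overlapped (0.63, SE 0.29), and Atf4 itself gave 0.05 (SE 0.28). A list for eIF2 control and ribosome recycling held 11 genes, Dhx29, Ddx3x, Bzw1 and Bzw2 among them. Of these 11, 10 were negative (90.9%, against 67.9% of all genes tested) and 0 passed limma. Their median was −0.12, against −0.11 for all genes tested. The recycling partners Mcts1 and Denr, whose proteins form 1 complex, gave −0.42 (SE 0.23) and 0.33 (SE 0.28). Mcts1 was at 44.7, 45.5 and 44.1 TPM in the controls, against 37.8, 27.3 and 35.3 TPM with radiotherapy, without overlap.

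The eIF3 complex, the largest factor and the platform for the small subunit, had 14 tested genes, of which 12 had negative and 2 (Eif3a and Eif3g) positive fold changes. The negative share was 85.7%, against 67.9% of all genes tested. The median was −0.23, against −0.11 for all genes tested, and 0 passed limma. After median-of-ratios scaling 11 of the 14 were negative with a median of −0.13 (−0.04 for all genes), and after quantile normalization 9 with a median of −0.09 (−0.01 for all genes). Without radiotherapy 2, which held the lowest value for 13 of them, 9 were negative with a median of −0.06 (−0.005 for all genes). With control 3 left out as well, 5 of 14 were negative and the median turned to 0.0563, against 0.00452 for all genes. Levels of these subunits, which meet in 1 complex, ranged over the 6-library means from 10.5 TPM for Eif3j1 to 181 TPM for Eif3h.

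Eif3f, a subunit known in muscle as a target of the atrophy ubiquitin ligase Fbxo32, was at 104, 108 and 117 TPM in the controls, against 88.3, 60.7 and 97.4 TPM with radiotherapy. The groups did not overlap, with means of 110 ± 6.69 and 82.1 ± 19.1 TPM (n = 3 each). The log2 fold change was −0.44 (SE 0.25, 95% interval −0.995 to 0.115; limma adjusted p = 0.977). Of Eif2d, Eif3f and Eif3i, Eif3f alone stayed without overlap after each of 3 other scalings. The remaining alternatives keep the order of values or leave libraries out, so they could not create an overlap. Its fold changes ran from −0.19 to −0.58 over all 16 alternative settings, with limma adjusted p of 0.507 at the lowest. Without radiotherapy 2 its fold change was −0.24. Eif3i, a subunit with WD repeats, was at 147, 140.3 and 213 TPM in the controls, against 135, 93.0 and 139 TPM with radiotherapy (−0.44, SE 0.26). The gap between the groups was narrow, and they overlapped after each of 3 other scalings. Without control 3 its fold change was −0.25.

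Eif3l, a subunit of the eIF3 core, gave −0.46 (SE 0.33), with 30.9, 35.6 and 47.6 TPM in the controls, against 29.9, 16.9 and 38.8 TPM with radiotherapy, an overlap set by radiotherapy 3. The scaffold subunit Eif3c gave −0.37 (SE 0.26). Eif3a, the largest subunit, had its highest value in radiotherapy 3: it was at 28.4, 49.0 and 52.8 TPM in the controls, against 38.1, 29.6 and 76.4 TPM with radiotherapy (0.08, SE 0.38), and its fold change was −0.31 without radiotherapy 3. The 5 most abundant subunits by 6-library mean, Eif3h, Eif3k, Eif3e, Eif3i and Eif3m, ranged together from 93.0 to 234 TPM, with radiotherapy 2 lowest in each.

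Sequences at the transcription start are shown for the 2 tested members whose RefSeq start begins with a C followed by at least 4 further C or T, the letter pattern of a 5′ terminal oligopyrimidine (TOP) start, through which mTORC1 and Larp1 control many mRNAs of the translation machinery. Of the 51 tested members 40 matched the RefSeq promoter table (GRCm38.p6) by symbol; Eif1a, Eif2b3, Eif3e, Eif3h, Eif3i, Eif3j2, Eif4e3, Eif4ebp1, Eif4ebp3, Eif4g2 and Eif6 did not. The pattern was at an annotated start of 2 of the 40 (5%), read on the gene's own strand. Over all 27025 genes in that promoter table, not filtered for expression, the share was 3.01%. Each line gives 15 bases before and 15 from the start, with the C and T run in capitals.
Eif3f (chr7:108934400-108934429, + strand): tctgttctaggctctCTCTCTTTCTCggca
Eif2s3x (chrX:94212637-94212666, − strand): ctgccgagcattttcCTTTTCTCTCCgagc
The values of these genes are those given above: Eif3f was lower without overlap (−0.44), and Eif2s3x overlapped (−0.29). Annotated starts can be off by a few bases, and no match says only that these letters are not at that position.

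Among the cap-binding proteins, Eif4e was the member with the widest range over libraries. It was at 77.2, 72.7 and 52.9 TPM in the controls, against 72.3, 22.6 and 94.6 TPM with radiotherapy. Radiotherapy 2 lay far below the other 5 libraries, and the highest value was 4.20-fold the lowest. The fold change was −0.30 (SE 0.47, 95% interval −1.37 to 0.77), and without radiotherapy 2 it was 0.31. The homologue Eif4e2, which binds caps without joining eIF4G and acts in repression, was at 28.7 to 37.9 TPM in control and 17.2 to 43.1 TPM after radiotherapy, again lowest in radiotherapy 2. Eif4e3 was at 10.5 to 20.8 TPM over the 6 libraries, and the oocyte form Eif4e1b at 0.11 TPM at most.

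Eif4ebp1, a 4E-BP gene and a known ATF4 target, had the largest positive fold change of the 51 and the largest coefficient of variation, 50.9%. It was at 78.9, 92.3 and 249 TPM in the controls, against 116, 180.3 and 280.5 TPM with radiotherapy. Control 3 stood with the higher radiotherapy libraries, so the groups overlapped. The log2 fold change was 0.56 (SE 0.46, 95% interval −0.49 to 1.61; limma adjusted p = 0.977). Without control 3 it was 1.07 with no overlap, in a setting where 4.41% of all genes were higher without overlap. Without radiotherapy 3 the log2 fold change was 0.24. With each library left out in turn the limma adjusted p ran from 0.832 to 1.000.

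The other repressors had fold changes of both signs. Eif4ebp2, the form that predominates in brain, was at 26.8, 35.2 and 39.7 TPM in the controls, against 27.4, 16.1 and 33.6 TPM with radiotherapy (−0.43, SE 0.31). Eif4ebp3, whose gene shares a read-through transcript with Ankhd1, was at 1.33, 3.31 and 2.97 TPM in the controls, against 5.14, 3.76 and 3.09 TPM with radiotherapy (0.53, SE 0.29), an overlap of 1 library on each side. Eif4enif1, the transporter that carries eIF4E into the nucleus, was at 7.18 to 11 TPM over all libraries.

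Ratios within a library hardly depend on how libraries are scaled, and 11 pairs were compared on log2((TPM + 1)/(TPM + 1)). The Eif4e to Eif4ebp1 ratio was −0.03, −0.34 and −2.21 in the controls, against −0.68, −2.94 and −1.56 with radiotherapy. It varied most of all pairs, over 2.91 log2 units, and the groups overlapped (difference −0.86, two-sided exact permutation p = 0.5). Eif4ebp1 over Eif4ebp2 was 1.52, 1.37 and 2.62 in the controls, against 2.04, 3.41 and 3.02 with radiotherapy, higher by 0.99 with 1 control inside the radiotherapy range (exact permutation p = 0.2). No pair gave an adjusted p under 0.55 over the 11 exact tests.

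**Figure D4:**
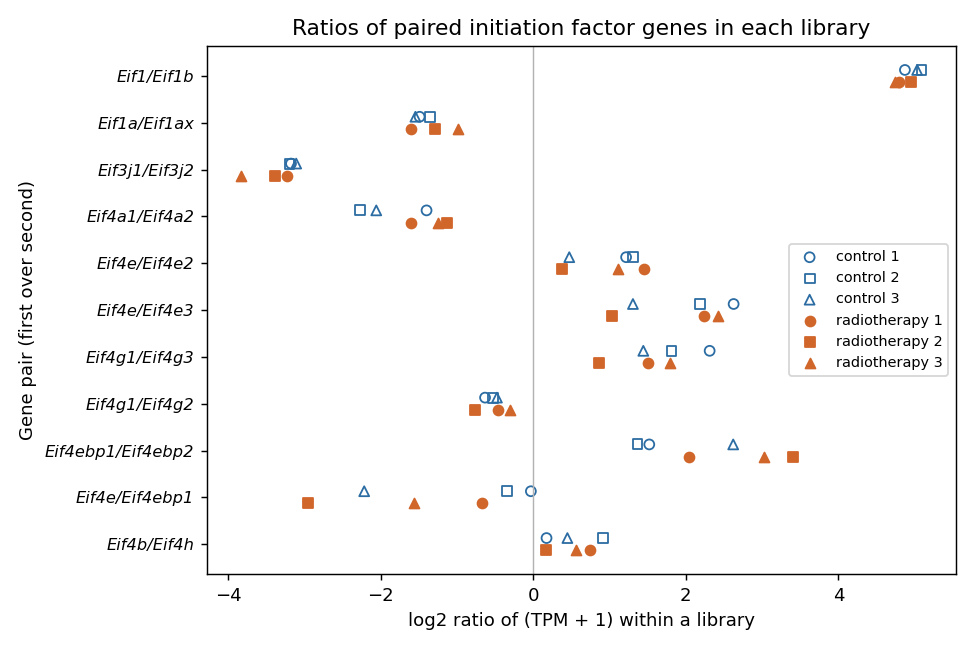
Log2 ratio of (TPM + 1) within each library (x axis) for 11 gene pairs, first gene over second (y axis), with open blue symbols for control and filled orange symbols for radiotherapy libraries. The groups do not overlap for Eif3j1 over Eif3j2 only, and the widest spread, 2.91 log2 units, is that of Eif4e over Eif4ebp1.

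The only pair without overlap was Eif3j1 over Eif3j2, the genes of the loosely bound j subunit. The ratio was −3.17, −3.19 and −3.10 in the controls, against −3.23, −3.39 and −3.83 with radiotherapy. The difference of −0.32 gave p = 0.1 by the exact permutation test, its lower limit here, and 0.55 after adjustment over the 11 exact tests. The copies are near-identical, so the division of reads between them is uncertain; Eif3j2 was listed at 75.5 to 172 TPM and Eif3j1 at 6.31 to 13.7 TPM.

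Of the helicases, Eif4a2 exceeded Eif4a1 in every library. Eif4a2 was at 314, 460 and 440 TPM in the controls, against 314, 272 and 531 TPM with radiotherapy (log2 fold change −0.16, SE 0.29). Eif4a1 was at 119, 94.5 and 105 TPM in the controls, against 103, 124 and 222 TPM with radiotherapy (0.42, SE 0.30), and radiotherapy 3 alone lay far above the rest. The TPM ratio of Eif4a1 to Eif4a2 was 0.378, 0.206 and 0.239 in the controls, against 0.328, 0.457 and 0.419 with radiotherapy, with control 1 inside the radiotherapy range (difference 0.58 on the log2 scale, exact permutation p = 0.2). Eif4a3, the helicase of the exon junction complex, gave 0.16 (SE 0.27). The helicase cofactors Eif4b and Eif4h gave −0.29 (SE 0.32) and −0.27 (SE 0.26).

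The eIF4G scaffolds were among the more abundant members. Eif4g1 was at 150.1, 152 and 140.3 TPM in the controls, against 114, 80.1 and 188 TPM with radiotherapy (−0.30, SE 0.31). The controls were close together and the radiotherapy values lay on both sides of them. Eif4g2, an eIF4G-like protein that does not bind eIF4E, was at 233, 220 and 195 TPM in the controls, against 158, 136 and 232 TPM with radiotherapy (−0.33, SE 0.25). Eif4g3 gave 0.18 (SE 0.27), at 29.4 to 50.97 TPM in control and 39.6 to 53.8 TPM after radiotherapy.

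Eif4e and Eif4g1 are textbook targets of Myc, which binds the E-box CACGTG, so the 300-base promoters (250 bases before to 50 after the start) were searched for it. The motif reads the same on both strands. It was at 1 or more starts of 8 of the 40 matched members (20%). The share was 8.09% over all 27025 genes in the RefSeq promoter table, which were not filtered for expression. The 8 were Eif1b, Eif3a, Eif3f, Eif3k, Eif4a1, Eif4e, Eif4g1 and Eif4h, with 5 negative and 3 positive fold changes from −0.44 to 0.42. One stretch around the motif, in capitals, is shown for each core gene of eIF4F that held it, on the gene's strand.
Eif4e (chr3:138527028-138527057, + strand): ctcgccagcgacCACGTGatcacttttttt
Eif4g1 (chr16:20672661-20672690, + strand): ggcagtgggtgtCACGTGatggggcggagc
Eif4a1 (chr11:69672595-69672624, − strand): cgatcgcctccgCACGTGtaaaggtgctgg
In the stretches shown the motif began at −228, −54 and −189 from the annotated start, in this order. Eif4e and Eif4g1 each held 2 motifs, the other being at −64 in Eif4e and at 15 in Eif4g1. The fold changes of these genes were −0.30, −0.30 and 0.42, and a match of letters is a description, not a binding site.

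Regulators of eIF4F outside the named families did not pass the test either. Of 18 genes of mTORC1 and eIF4F control 12 were negative (66.7%, against 67.9% of all genes tested). Of the 18, 0 passed limma, and the median was −0.22. Mlst8, a subunit of the mTOR complexes, was at 4.24, 5.08 and 5.14 TPM in the controls, against 2.83, 2.52 and 3.05 TPM with radiotherapy, without overlap (−0.61, SE 0.21, limma adjusted p = 0.977). The poly(A)-binding protein gene Pabpc4 gave −0.71 (SE 0.34). Of 10 elongation and termination genes 9 were negative (90%, against 67.9% of all genes tested) and 0 passed limma. These genes had a median of −0.27, against −0.11 for all genes tested. They included the elongation factor Eef2 at −0.53 (SE 0.33) and its inhibitory kinase Eef2k at −0.59 (SE 0.30).

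For the last steps, the fold changes of Eif5 and Eif5b had opposite signs. Eif5, the GTPase activator of eIF2, was at 56.0, 75.5 and 56.2 TPM in the controls, against 53.0, 37.9 and 84.9 TPM with radiotherapy (−0.16, SE 0.32). Eif5b, the GTPase of subunit joining, was at 19.2, 26.7 and 19.8 TPM in the controls, against 24.9, 27.3 and 41.6 TPM with radiotherapy (0.47, SE 0.27, 95% interval −0.15 to 1.09). The overlap was between control 2 and radiotherapy 1 only. After each of 3 other scalings the Eif5b groups did not overlap, with fold changes of 0.57 to 0.65, and no such call passed limma. In these scalings 3.93% to 5.21% of all genes were higher without overlap.

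Eif6, which keeps the large subunit from joining too early and also acts in ribosome assembly, had the most negative fold change. It was at 27.5, 32.0 and 32.6 TPM in the controls, against 21.8, 10.8 and 29.7 TPM with radiotherapy. Radiotherapy 3 lay inside the control range, but below it after median-of-ratios scaling and quantile normalization. There 6.68% and 5.22% of all genes were lower without overlap. The means were 30.7 ± 2.77 and 20.8 ± 9.48 TPM (n = 3 each), and the log2 fold change was −0.65 (SE 0.35, 95% interval −1.43 to 0.14; limma adjusted p = 0.977). Without radiotherapy 2 it was −0.26, and without radiotherapy 3 it was −0.95 (limma adjusted p = 0.507).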

How the data were processed

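Poly(A) or other selection is not stated; a TruSeq RNA kit was used, per the labels. What the authors deposited is TPM, length-corrected and scaled to 1000000 per library, in a single table. HISAT2, StringTie and RSEM with build mm9 are named in the submitters' processing notes; the sources used here give no version, role, annotation or strandedness. Depth was unknown, and reads of near-identical copies may have been divided in ways the table does not show. Values were analysed as log2(TPM + 1), which understates changes of low genes. Genes reaching 1 TPM in 3 or more samples entered limma 3.58.1 (R 4.3.3; trend, group as the only term, two-sided), with Benjamini-Hochberg adjustment over all 11375 genes and a threshold of 0.05; the fit was tested on simulated data. Sums and ratios were compared by exact permutation tests in scipy 1.17.1. Figures used matplotlib 3.10.9.

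The members and lists were chosen with earlier results of these data known. Any tested member could be named, with full statistics for those whose groups did not overlap and for a key member of each role; of each other list the 2 genes of smallest p were named, and Atf4 beside them. Alternatives were a pseudocount of 0.1, no filter, a 5 TPM filter, 3 other scalings (median of ratios, quantile, and removal of the 50 most abundant and mitochondrial genes), no trend, robust limma, the replicate block and each library left out. Leaving out control 3 and radiotherapy 2 together was added after the data were seen.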

Additional observations from a re-analysis of the deposited data

How the results depend on the processing

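Of the genes named above, 39 were followed singly over all alternatives, and none of these passed the limma threshold. The lowest limma adjusted p was 0.237, for Chac1. Of the 618 alternative values of these genes, 34 had the opposite sign, from 16 genes. The filters, no trend, robust limma and the replicate block leave a fold change as it is, so those values could not turn. With the replicate number as a block, limma called 0 genes in all and 0 of the 51 members; same-numbered samples did not deviate together (r = −0.06, 0.02 and −0.11), so the numbers were not taken as pairs, and the block changed no call. With abundant and mitochondrial genes removed, 1 member was lower and 6 were higher without overlap (Eif2b5, Eif1b, Eif1ad, Eif5b, Eif2b3 and Eif4a1), against 3.79% and 4.09% of all genes, Eif1 gave 0.0588 and Eif2ak3 0.0358, and the summed differences were 32.5 TPM for all members, 133 TPM for eIF1 and 115 TPM for eIF4. With median-of-ratios scaling 4 were lower and 2 higher without overlap (Eif1ad and Eif5b), against 6.68% and 3.93% of all genes, Eif1 gave 0.0430 and Eif2ak3 0.0309, and the summed differences were 52.3 TPM for eIF1 and 17.995 TPM for eIF4. With quantile normalization 3 were lower and 4 higher without overlap (Eif1b, Eif1ad, Eif5b and Eif2b3), against 5.22% and 5.21% of all genes, Eif1 gave 0.0570, Eif2s1 0.0195 and Eif5 0.0285. With control 3 and radiotherapy 2 both left out, a setting chosen after seeing the data, 1 gene (Gm26447, no member) was called, and 4 members were lower and 7 higher without overlap, against 13.5% and 9.64% of all genes; Eif1 gave 0.0296, Eif2ak1 0.0491, Eif2ak2 −0.10, Eif2s1 0.14, Eif2s2 0.0255, Eif3l 0.0369, Eif4a2 0.10, Eif4e 0.14 and Eif5 0.0445. The causes were not tested. Leaving out each library in turn gave 0 to 1 genes called (Gm55635 without control 1 and Gm24497 without radiotherapy 1, no members, named after their values were seen), 3 to 20 members lower without overlap (20 without radiotherapy 3 and 10 without control 1, where 30.7% and 14.998% of all genes were) and 0 to 4 higher. Among the 39 genes, the fold changes that turned sign then ran from −0.13 to 0.0467 for Eif1, −0.00348 to 0.20 for Eif1b, −0.13 to 0.44 for Eif2ak2, −0.13 to 0.0608 for Eif2ak3, −0.0304 to 0.21 for Eif2ak4, −0.0225 to 0.12 for Eif2b5, −0.33 to 0.0524 for Eif2s1, −0.31 to 0.36 for Eif3a, −0.45 to 0.0322 for Eif4a2, −0.00096 to 0.33 for Eif4a3, −0.71 to 0.31 for Eif4e, −0.0388 to 0.35 for Eif4g3 and −0.46 to 0.11 for Eif5. Members outside the 39 turned as well. Without radiotherapy 3, 14 of 14 eIF3 genes were negative, and without control 3, 0 of 5 eIF2B genes were. Differences of log2 ratios ran from −0.19 to 0.18 for Eif4b over Eif4h, −0.28 to 0.28 for Eif4e over Eif4e2, −0.51 to 0.29 for Eif4e over Eif4e3 and −0.0688 to 0.16 for Eif4g1 over Eif4g2. Summed differences in TPM ran from −882 to 51.1 for all members, −133 to 49.5 for eIF1, −83.2 to 9.51 for eIF2, −302 to 133 for eIF4 and −12.9 to 17.7 for eIF5. Depth was unknown, so counting error could not be given; it bears most on the kinases near 1 TPM.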
